A study of Arabidopsis thaliana with 20 samples.

Results

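The 82 loci described here were high after dawn, low after dusk, and differed in the same direction, by less, after the light:dark cycle was removed. They were found among 33601 loci and chosen by their measured CPM (the counts of a locus scaled to the same library total), normalised by the trimmed mean of M-values (TMM). The rule asked for a mean of at least 10 CPM in Control AM. It also asked for D of at least 3, where D is the log2 ratio of mean Control AM to mean Control PM with 1 CPM added to both. The last condition was L of at least 1.5, where L is the same ratio between the AM and PM libraries of constant light (LL), control and heat averaged. Of 151 loci that met the first 2 conditions, 82 also met the third and 69 did not.

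The libraries came from Arabidopsis thaliana Columbia-0 (Col-0) seedlings 2 weeks old, raised with 12 h of light a day at 23 °C, without mutants or transgenes. Control AM and Heat AM plants spent 1 h at 23 °C or 30 °C from 0.5 h after dawn (ZT 0.5), and Control PM and Heat PM plants did so from 0.5 h after dusk (ZT 12.5), with 4 replicates in each group. In LL Control AM, LL Control PM, LL Heat AM and LL Heat PM, 1 library each, plants were moved to constant light before the same treatments at subjective dawn and dusk. AM plants of the light:dark cycle were in the light and PM plants were in the dark, so time of day and light cannot be told apart in those 16 libraries. The source field says whole plant tissue whereas the protocol says aerial tissue. Nothing in the labels says whether replicates were separate cultures, so a p-value measures only the spread between these samples.

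The circadian clock of Arabidopsis is a set of transcriptional repressors and activators that follow each other through the day. The MYB factors CCA1 and LHY peak at dawn and repress evening genes, the pseudo-response regulators repress CCA1 and LHY in turn, and the MYB factor RVE8 works with LNK proteins to activate evening genes. Many genes of light harvesting, chlorophyll synthesis and light signalling peak in the morning under this clock, and light itself raises many of them.

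By role, 9 of the 82 were clock genes (the MYBs CCA1, LHY, RVE8 and ASG4, the co-activators LNK1 to LNK4, and PRR9). A further 3 were flowering-time factors of the CDF and CONSTANS-like families, 9 coded for B-box zinc finger proteins, and 4 acted elsewhere in light signalling and growth. Light harvesting and photosystem I took 13, chlorophyll synthesis 3, carbon metabolism and transport 9, and the other 32 had mixed or unknown roles. D had a median of 4.36 and reached 7.72 for LHCB2.3, a light-harvesting protein of photosystem II. L reached 4.97 for LHCB2.2 and was below D in all 82. These values chose the loci and are given as a description only. The loci nearest to the D threshold were PGL5 inside at 3.02 and ENT6 outside at 2.93. On L they were RXW8 inside at 1.54 and G3Pp1 outside at 1.48. On Control AM level they were ABCF2 inside at 10.3 CPM and, as the one locus kept out by level alone, BBX30 at 7.98 CPM.

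The comparison that the rule did not use is Heat AM against Heat PM, which asks whether the morning difference was there in plants at 30 °C. All 82 loci were called higher in Heat AM by edgeR's quasi-likelihood test (adjusted p under 0.05 and log2 difference over 0.5), where 20.5% of 20809 loci tested were called in that direction. In all 82, every Heat AM library was above every Heat PM library, against 21.4% of the loci tested. The difference ran from 2.41 to 8.68 on the log2 scale with a median of 4.85, beside a median of 0.00 over all loci tested, and 73 loci exceeded 8-fold. The largest adjusted p among them was 1.79e-04. The plants at 30 °C were sampled at the same hours as the controls that chose the loci, so this comparison repeats the time of day at another temperature. Levels in CPM are not per length and are compared only within a gene.

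**Figure D1:**
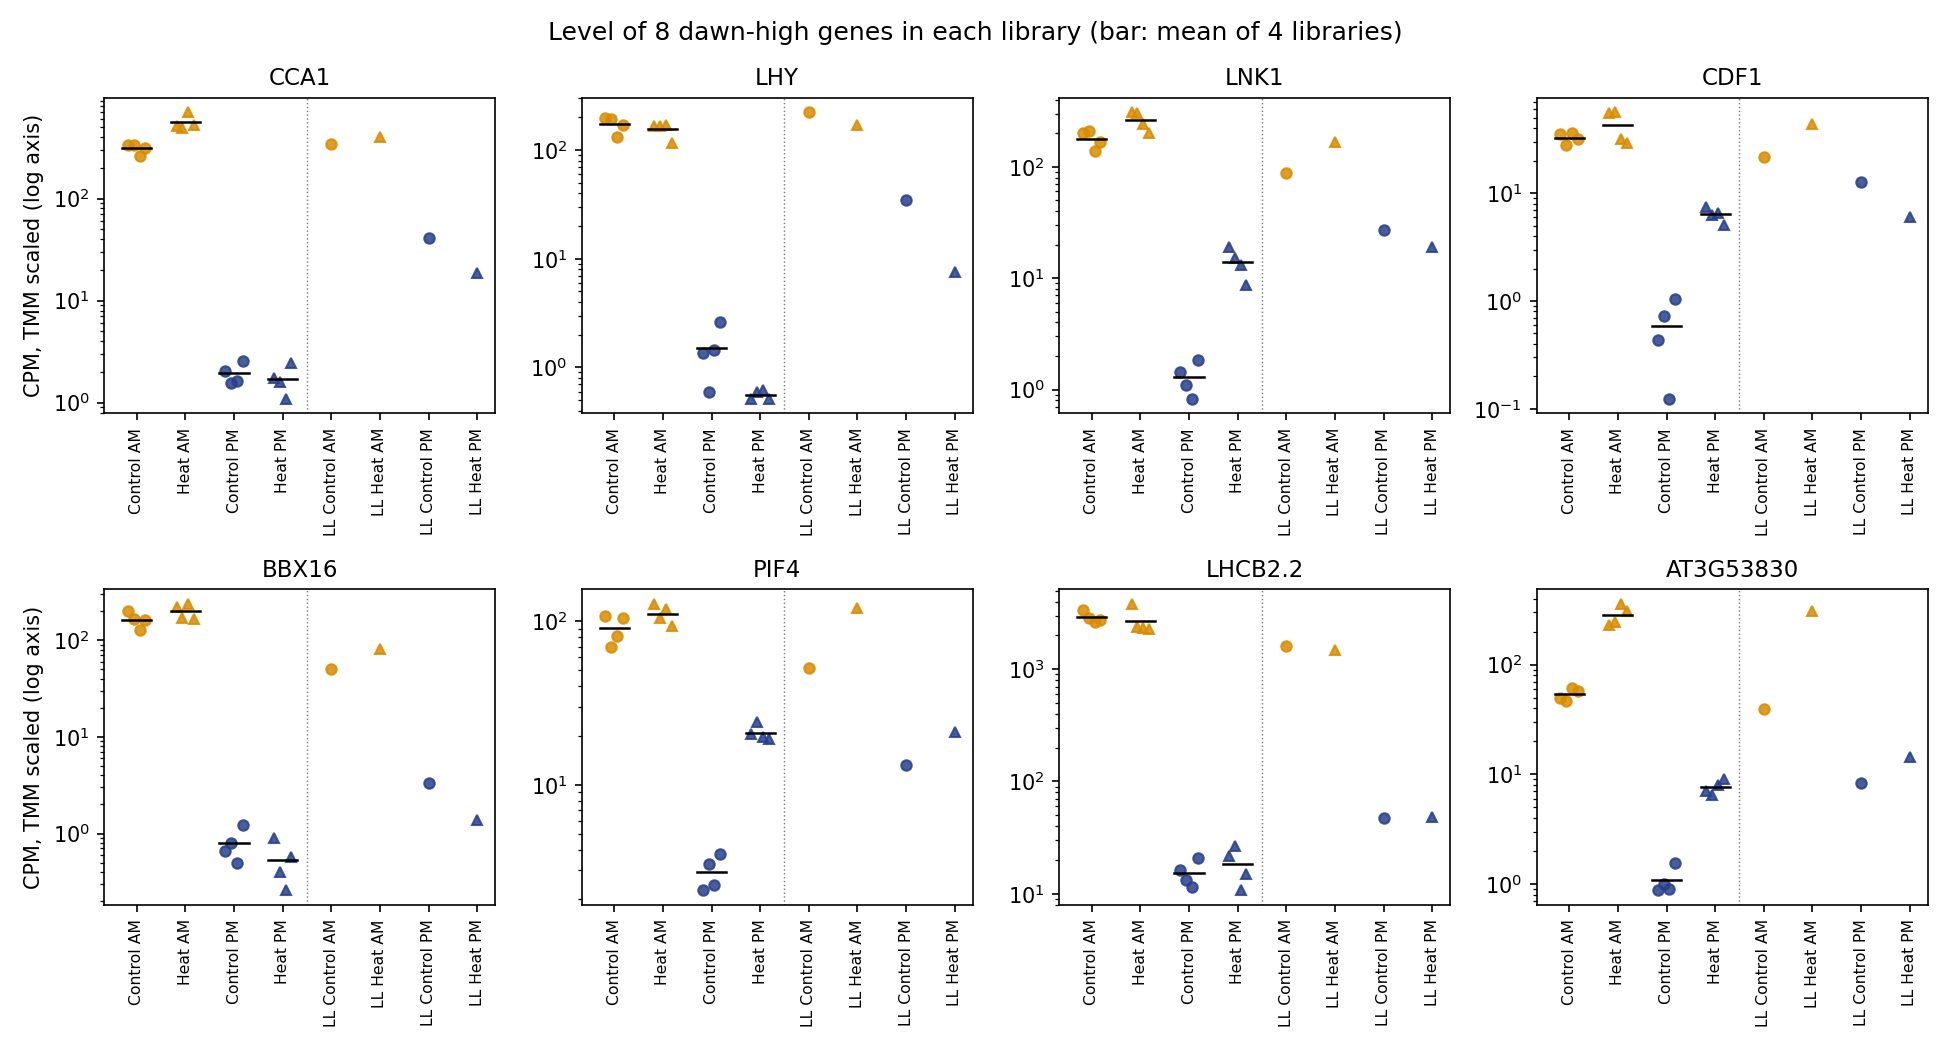
Level of 8 of the dawn-high genes in each library, in TMM-scaled CPM on a log axis. Orange marks AM and blue PM libraries, circles control and triangles heat, and bars the mean of 4 libraries; the 4 columns right of the dotted line are constant light, 1 library each. CCA1 was between 262 and 700.1 CPM in the 8 AM libraries of the light:dark cycle and between 1.08 and 2.55 CPM in the 8 PM libraries, while PIF4 reached 24.3 CPM in Heat PM.

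Among the clock genes the log2 difference between Heat AM and Heat PM ran from 4.23 to 8.33, with a median of 6.84. CCA1, the dawn MYB repressor, stood at 515, 488, 700.1 and 526 CPM in the 4 Heat AM libraries and at 1.74, 1.60, 1.08 and 2.45 CPM in the 4 Heat PM libraries. The lowest AM library was thus 199.5 times the highest PM library, and the log2 difference was 8.33 ± 0.29 SE, edgeR adjusted p = 1.17e-08. Its partner LHY was at 166, 165, 171 and 117 CPM in Heat AM and 0.511, 0.601, 0.619 and 0.518 CPM in Heat PM, a log2 difference of 8.12 ± 0.21 (SE, edgeR adjusted p = 6.00e-09). Neither gene came near to an overlap between the hours, and the PM libraries of LHY were the tighter group, all between 0.511 and 0.619 CPM.

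PRR9, the first pseudo-response regulator of the day, was at 100.5, 88.5, 82.7 and 65.9 CPM in Heat AM and 0.511, 0.334, 0.206 and 0.471 CPM in Heat PM (log2 difference 7.69 ± 0.24 SE, edgeR adjusted p = 7.83e-09). RVE8, which activates evening genes, was at 55.6, 65.1, 110.5 and 82.8 CPM in Heat AM and 0.715, 1.00, 0.722 and 1.84 CPM in Heat PM (log2 difference 6.22 ± 0.35 SE, edgeR adjusted p = 2.44e-07). Replicates 3 and 4 of RVE8 were higher than replicates 1 and 2 in Heat AM, and the hours stayed apart in each.

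The LNK genes code for co-activators that RVE8 and its relatives recruit, and all 4 were among the 82. LNK3 had the largest log2 difference at 6.84, followed by LNK2 at 6.58, LNK4 at 4.93 and LNK1 at 4.23, each with an SE of at most 0.30 and edgeR adjusted p of at most 3.10e-07. LNK1 was at 308, 303, 239.8 and 202 CPM in Heat AM and 18.8, 15.1, 13.2 and 8.66 CPM in Heat PM. Its Heat PM libraries were all above the 0.819 to 1.83 CPM of its Control PM libraries, and its ratio with 1 CPM added was 4.14 at 30 °C beside a D of 6.30.

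The promoter sequences of clock genes are shown because their most frequent match is to the G-box CACGTG, a site bound by bHLH and bZIP factors of light signalling. Of the 9 clock genes, 8 (all but LNK4) held a G-box within 250 bases before to 50 bases after the annotated start. The only G-box of RVE8 began at 11, of LNK2 at 24 and of LNK1 at -2 bases from the start. None of these lies wholly before the start. The 250 bases before the start are given 5′ to 3′ on the coding strand, cut from the RefSeq TAIR10.1 genome, with each G-box in capitals. They lie at chr2:19245341-19245590 on the plus strand for CCA1, chr1:37872-38121 on the minus strand for LHY, chr2:19232357-19232606 on the plus strand for PRR9 and chr3:3923265-3923514 on the plus strand for LNK3. CH1 and LHCB6, described further on, were added because they hold a G-box, as did 1 of 3 chlorophyll synthesis and 3 of 13 light-harvesting and photosystem I genes, and they do not stand for those groups. They lie at chr1:16851272-16851521 and chr1:5447881-5448130, both on the minus strand.
CCA1: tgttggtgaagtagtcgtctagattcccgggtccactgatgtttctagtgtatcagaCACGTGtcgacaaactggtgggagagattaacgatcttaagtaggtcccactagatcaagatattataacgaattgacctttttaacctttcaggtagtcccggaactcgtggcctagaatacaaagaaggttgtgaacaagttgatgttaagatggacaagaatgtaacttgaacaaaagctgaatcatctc
LHY: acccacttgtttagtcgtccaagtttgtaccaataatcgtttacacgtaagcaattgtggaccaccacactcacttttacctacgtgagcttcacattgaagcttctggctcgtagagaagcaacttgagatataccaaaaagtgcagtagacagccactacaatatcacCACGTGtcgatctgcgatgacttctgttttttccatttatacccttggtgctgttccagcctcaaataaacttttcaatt
PRR9: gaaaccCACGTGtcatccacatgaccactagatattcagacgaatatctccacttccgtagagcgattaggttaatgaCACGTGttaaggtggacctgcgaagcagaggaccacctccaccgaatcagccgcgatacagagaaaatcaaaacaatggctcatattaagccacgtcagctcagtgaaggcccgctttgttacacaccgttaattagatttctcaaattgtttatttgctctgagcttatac
LNK3: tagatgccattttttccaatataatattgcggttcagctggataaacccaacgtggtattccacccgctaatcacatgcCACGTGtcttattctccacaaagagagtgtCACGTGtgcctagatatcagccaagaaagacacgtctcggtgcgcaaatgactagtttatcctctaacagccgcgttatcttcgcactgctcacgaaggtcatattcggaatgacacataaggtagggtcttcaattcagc
CH1: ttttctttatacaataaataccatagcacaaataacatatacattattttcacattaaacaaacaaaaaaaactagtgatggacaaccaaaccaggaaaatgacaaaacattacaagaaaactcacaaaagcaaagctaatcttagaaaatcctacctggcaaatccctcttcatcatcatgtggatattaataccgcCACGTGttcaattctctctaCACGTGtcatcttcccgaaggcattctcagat
LHCB6: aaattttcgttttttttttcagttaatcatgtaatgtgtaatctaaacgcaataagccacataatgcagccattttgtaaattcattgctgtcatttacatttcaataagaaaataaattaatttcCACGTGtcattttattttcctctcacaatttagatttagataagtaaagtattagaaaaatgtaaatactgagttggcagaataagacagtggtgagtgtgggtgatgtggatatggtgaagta
The G-box of CCA1 begins 193 bases before the start and that of LHY 80 bases before it. PRR9 holds a pair at 244 and 172 bases, LNK3 a pair at 171 and 141 bases, and CH1 a pair at 52 and 32 bases. LHCB6 has 1 at 124 bases.

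The 8 motifs searched are known from clock, light or heat studies and were read by their letters on both strands in the windows of 81 members, and over those of all 27443 protein-coding nuclear genes. AT2G16367 is annotated as a transcribed pseudogene and had no window. The G-box stood in 21 of the 81 (25.9%), against 7.68% of all windows. The hormone-up-at-dawn element CACATG was in 17 (21% against 12.9%), the morning element CCACAC in 11 (13.6% against 7.77%) and the CCA1-binding site AAAAATCT in 9 (11.1% against 7.88%). The evening element AAAATATCT, the site that CCA1 and RVE8 bind in evening genes, was in 4 (PRR9, COL2, AT4G13800 and STO; 4.94% against 2.82%). The heat shock element GAANNTTC was in 7 (8.64% against 11.6%), the protein box ATGGGCC in 2 (GBSS1 and LNK1; 2.47% against 8.17%) and the telo-box AAACCCT in 0 (against 10%). No matches of different motifs shared bases among the 80 found in members. By role, the G-box was in 8 of 9 clock genes, 3 of 13 light-harvesting and photosystem I genes and 0 of 9 B-box genes. These shares describe letters in a window and were not tested.

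**Figure D2:**
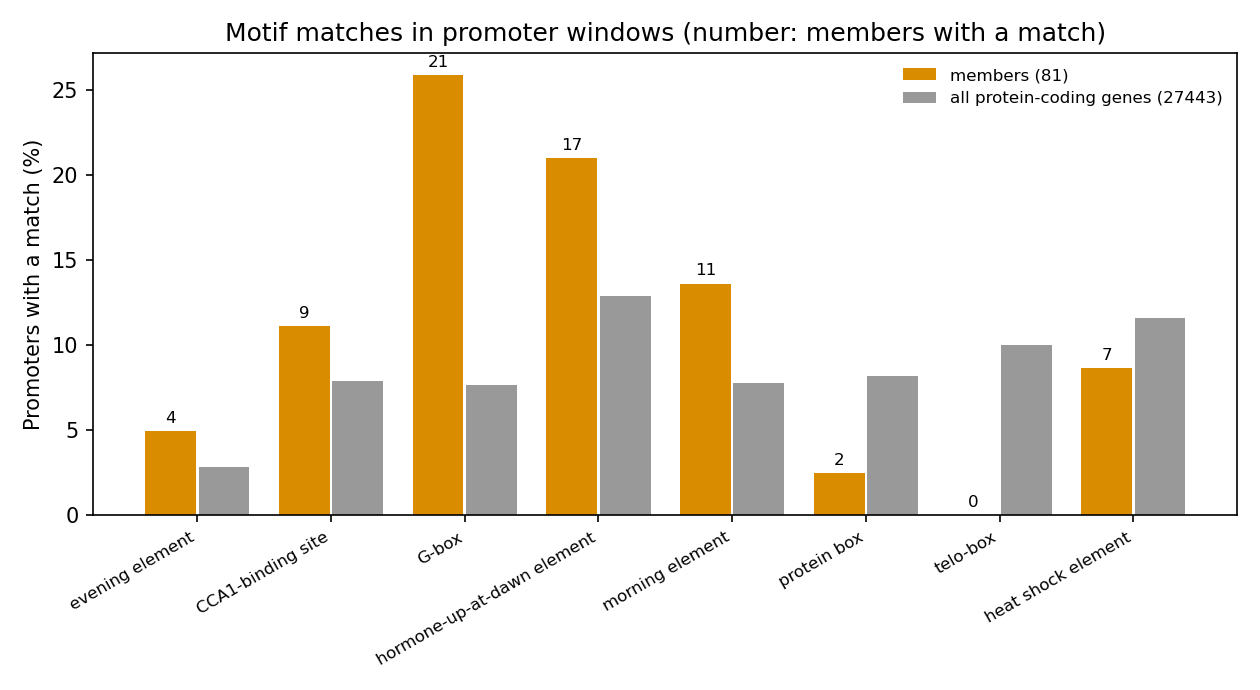
Share of promoter windows (250 bases before to 50 after the start, both strands) with at least 1 match to each of 8 motifs, for 81 members in orange and all 27443 protein-coding genes in grey. The number above an orange bar counts members; the G-box was in 21 members (25.9%) and in 7.68% of all genes, and the telo-box was in 0 members.

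CDF1, a DOF factor that represses CONSTANS and FT, was at 55.6, 56.4, 32.2 and 29.6 CPM in Heat AM and 7.49, 6.34, 6.60 and 5.04 CPM in Heat PM, a log2 difference of 2.76 ± 0.24 (SE, edgeR adjusted p = 4.94e-06). Replicates 1 and 2 were above replicates 3 and 4 in Heat AM. CDF3, a relative, differed by 5.63 and the CONSTANS-like gene COL2 by 6.57 on the log2 scale, with edgeR adjusted p of 6.00e-09 and 7.79e-09. Thus CDF1 had the smallest gap of the 3, and COL2 stayed between 1.70 and 2.54 CPM in every Heat PM library.

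B-box proteins are zinc finger factors of light signalling, and several hold back the light response of seedlings. The 9 in the set differed by 3.14 to 8.58 on the log2 scale between Heat AM and Heat PM. BBX31 was at 13.5, 14.6, 15.4 and 13.6 CPM in Heat AM and 0.0256, 0, 0 and 0.0942 CPM in Heat PM. Its 4 Heat PM libraries held 3 counts in all against 1095 in Heat AM, a pooled ratio of 449 with an exact binomial 95% interval of 153 to 2180 for counting error only. The fitted log2 difference of 8.58 for BBX31 depends on the prior count at that depth. BBX16 was at 222, 172, 239.9 and 168 CPM in Heat AM and 0.894, 0.400, 0.258 and 0.565 CPM in Heat PM (log2 difference 8.43 ± 0.31 SE, edgeR adjusted p = 1.91e-08). BBX32, STH, BBX18, BBX29, BBX28 and BBX19 followed, between 7.24 and 5.26. STO (BBX24) was at 528, 475, 434 and 397 CPM in Heat AM and 54.8, 57.5, 48.1 and 46.7 CPM in Heat PM, the smallest gap of the family at 3.14 ± 0.15 (SE, edgeR adjusted p = 7.78e-08). Its Heat PM libraries were tight and well above the 5.53 to 9.87 CPM of Control PM.

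The smallest difference among the 82 belonged to PIF4, a bHLH factor that drives elongation in warm plants. PIF4 was at 128, 104, 118 and 93.8 CPM in Heat AM and 20.4, 24.3, 19.5 and 19.1 CPM in Heat PM, a log2 difference of 2.41 ± 0.14 (SE, edgeR adjusted p = 3.22e-07). The lowest AM library was 3.86 times the highest PM library. EXPA8, an expansin of the cell wall, was at 149, 44.6, 141 and 73.1 CPM in Heat AM and 12.6, 15.6, 5.05 and 5.08 CPM in Heat PM, and its replicates spread widely at both hours (log2 difference 3.42 ± 0.47 SE, edgeR adjusted p = 1.54e-04). AFR, an F-box protein of far-red light signalling, and JAC1, needed for chloroplast movement, differed by 4.26 and 3.34.

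The 13 light-harvesting and photosystem I genes code for antenna proteins of both photosystems and for PSAD-2, a subunit of photosystem I. Their log2 differences ran from 2.49 to 7.42 with a median of 3.72, and in all 13 the ratio at 30 °C, on the scale of D, was below D. LHCB2.3 was at 1545, 568, 1050 and 697 CPM in Heat AM and 6.98, 6.14, 4.23 and 5.04 CPM in Heat PM, with LHCB2.1 and LHCB2.2 both at a log2 difference of 7.20. LHCB2.2 was at 3834, 2385, 2319 and 2274 CPM in Heat AM, replicate 1 the highest, and at 21.6, 26.4, 10.7 and 15.0 CPM in Heat PM. CAB2, a main antenna protein, was at 7678, 5948, 7278 and 6102 CPM in Heat AM and 257, 354, 43.7 and 52.3 CPM in Heat PM. Replicates 1 and 2 of CAB2 were far above replicates 3 and 4 in Heat PM, and its SE was the largest of the 82 at 0.67 (log2 difference 5.27, edgeR adjusted p = 8.81e-05).

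LHB1B1 came closest to an overlap. It was at 1374, 351, 885 and 434 CPM in Heat AM and 80.5, 109.6, 107 and 129 CPM in Heat PM, with the lowest AM library 2.73 times the highest PM library (log2 difference 2.83 ± 0.40 SE, edgeR adjusted p = 1.79e-04). PSAD-2 was at 1318, 878, 939 and 875 CPM in Heat AM and 172, 221, 149 and 169 CPM in Heat PM (log2 difference 2.49 ± 0.19 SE, edgeR adjusted p = 2.42e-06). LHCA1 and LHCA4, antenna proteins of photosystem I, differed by 2.70 and 3.47. Among the 13, 6 form 3 pairs of direct neighbours in the annotation, CAB3 with CAB2, LHCB2.2 with LHCB2.1 and LHB1B2 with LHB1B1. Members of each pair code for antenna proteins of the same family. Their sequences were not compared, so the split of reads between them is uncertain.

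CH1 makes chlorophyll b, GUN5 is a subunit of the magnesium chelatase that opens the chlorophyll branch, and GUN4 activates that enzyme. CH1 was at 396, 332, 379.8 and 309 CPM in Heat AM and 27.5, 28.1, 23.6 and 22.6 CPM in Heat PM (log2 difference 3.80 ± 0.15 SE, edgeR adjusted p = 2.43e-08). GUN5 was at 4160, 3485, 2014 and 1829 CPM in Heat AM and 459, 443, 245 and 222 CPM in Heat PM (log2 difference 3.07 ± 0.34 SE, edgeR adjusted p = 3.49e-05). In GUN5 replicates 1 and 2 were above replicates 3 and 4 at both hours. GUN4 differed by 3.15, and in all 3 genes the ratio at 30 °C was below D.

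In carbon metabolism, GBSS1, which makes amylose, was at 566, 610.2, 339 and 292 CPM in Heat AM and 2.81, 2.14, 1.96 and 2.68 CPM in Heat PM (log2 difference 7.54 ± 0.32 SE, edgeR adjusted p = 3.19e-08). SAG29, a sugar exporter, was at 34.1, 35.2, 59.8 and 44.2 CPM and 0.128, 0.0667, 0.155 and 0.330 CPM (log2 difference 7.95 ± 0.35 SE, edgeR adjusted p = 3.95e-08). The lowest AM library was 104 times the highest PM library for both GBSS1 and SAG29. PGL5, a 6-phosphogluconolactonase, had the smallest difference of the group at 2.83 ± 0.14 (SE), with 61.8, 56.3, 53.1 and 45.7 CPM in Heat AM and 7.31, 8.61, 6.91 and 7.63 CPM in Heat PM. The transporters PPT2, PHT4;1 and SULTR3;1 lay between, at 4.71, 3.98 and 3.73.

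Outside these roles the largest difference of all was that of AT2G27420, annotated as a cysteine proteinase, at 116, 129, 130.3 and 108 CPM in Heat AM and 0.409, 0.334, 0.103 and 0.235 CPM in Heat PM (log2 difference 8.68 ± 0.25 SE, edgeR adjusted p = 6.00e-09). AT3G09450 held 5 counts over the 4 Heat PM libraries and 1398 in Heat AM, a pooled ratio of 344 (exact binomial 95% interval 147 to 1061, counting error only). AT2G15020 differed by 7.92, from 258, 229, 183 and 167 CPM in Heat AM to 0.869, 0.601, 0.876 and 1.04 CPM in Heat PM. At the other end AT5G22390 and AT2G34620 differed by 2.65 and 2.83, and neither overlapped between the hours.

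**Figure D3:**
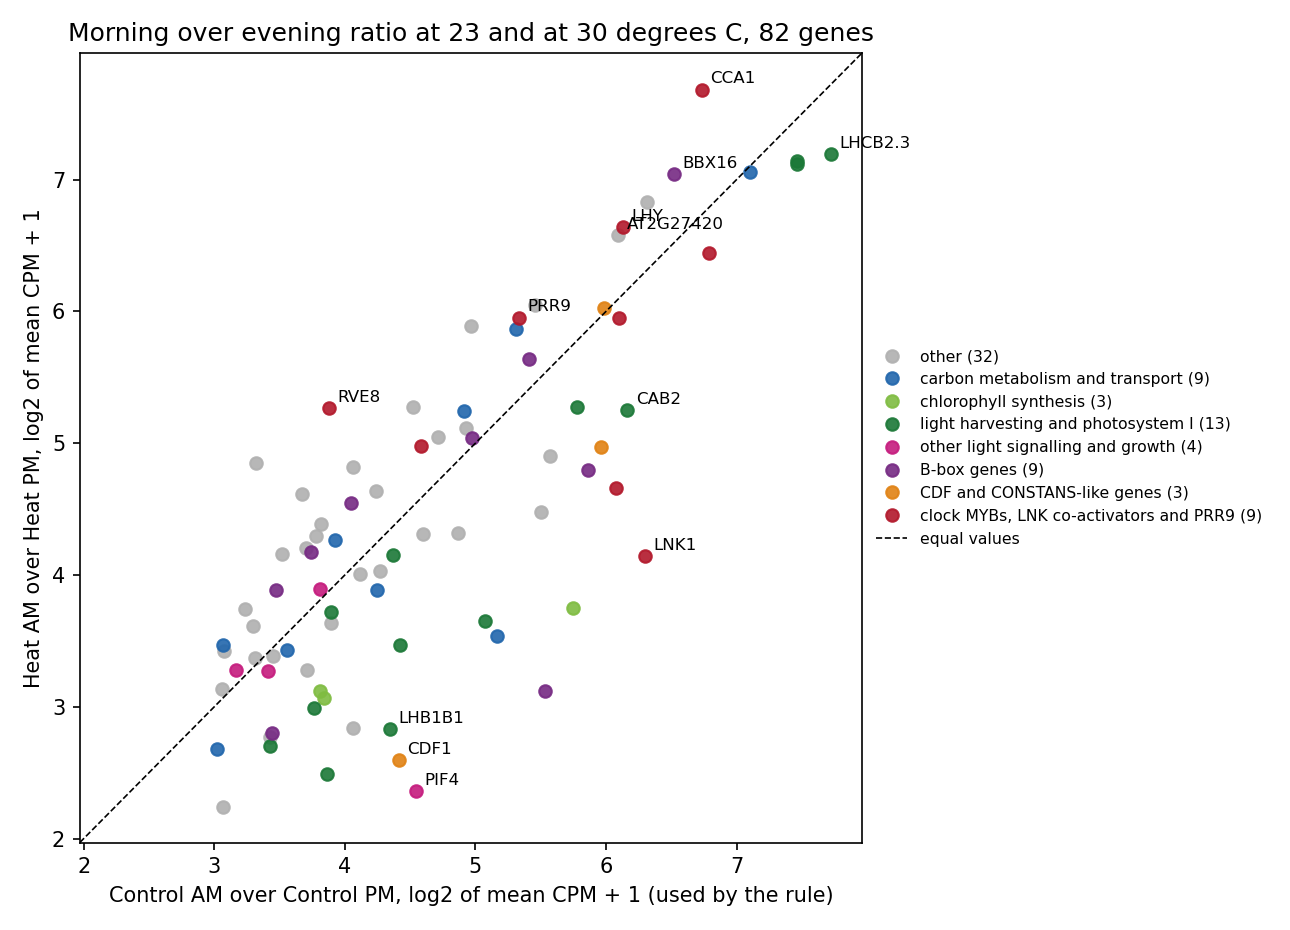
Log2 ratio of mean AM to mean PM CPM (1 CPM added to both) at 23 °C on the horizontal axis, which chose the genes, and at 30 °C on the vertical axis, for the 82 genes coloured by role, with a dashed line of equal values. The 30 °C ratio was below the 23 °C ratio in 44 of 82, among them all 13 light-harvesting and photosystem I genes; LNK1 (6.30 and 4.14) and PIF4 (4.54 and 2.36) lie far below the line, and RVE8 (3.88 and 5.26) above it.

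On the scale of D, with 1 CPM added, the median ratio at 30 °C was 4.23 beside a median D of 4.36, and 44 of 82 were lower at 30 °C. A lower value at 30 °C is in part set by the choice of loci with a high D. Loci past the same D threshold but with an L below 1.5 were called higher in Heat AM in 68 of 69 cases, with a median log2 difference of 4.08 beside 4.85 for the 82. Their median D was also lower, at 3.71 beside 4.36. The exception was ORA47, at -0.72 ± 0.48 (SE, edgeR adjusted p = 0.244), chosen for naming after its value was seen. Of 32 loci past the mirrored thresholds, high after dusk in both light regimes, all 32 were higher in Heat PM with a median of -4.54.

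In constant light each group had 1 library, so the values have no replicate check, and they chose the loci. CCA1 was at 340.2 CPM in LL Control AM and 40.9 CPM in LL Control PM, and at 397 CPM in LL Heat AM and 18.5 CPM in LL Heat PM. LHY was at 223, 34.5, 169.7 and 7.58 CPM in the same order. In both, LL Control AM was above the Control AM mean, and the evening libraries were all above the 0.511 to 2.61 CPM seen for either gene in the 8 PM libraries of the light:dark cycle. LHCB2.2 was at 1594, 47.3, 1470 and 48.3 CPM in the same order, and BBX16 at 49.9, 3.32, 81.9 and 1.37 CPM.

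In most of the 82 the evening level was higher in constant light and, unlike in CCA1 and LHY, the morning level was lower. The LL Control PM level was above the Control PM mean in 79 of 82 loci and above every Control PM library in 74, with a median log2 ratio of 1.81. It was above that mean in 67 of the 69 loci with an L below 1.5, with a median of 1.78. The same held in 5160 of 12145 loci with a mean of at least 10 CPM. The LL Control AM level was below the Control AM mean in 71, with a median of -0.61. It was also below in 61 of the 69 loci with an L below 1.5, and in 5730 of 12145 loci with a mean of at least 10 CPM. The loci here had been chosen for a high Control AM mean, which favours lower values in other AM libraries. Among loci with a mean of at least 10 CPM, the LL Control PM level exceeded every Control PM library in 2810 of 12145, as it did in 65 of the 69 loci with an L below 1.5, and the loci here had been chosen for a low Control PM mean. Light in the evening and the absence of the cycle cannot be told apart in these libraries.

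The AM over PM log2 ratio, with 1 CPM added, had a median of 1.79 between the LL controls and 2.85 between the LL heat libraries, beside a median D of 4.36. These libraries chose the loci by an L of at least 1.5, which favours ratios above 1. The ratio exceeded 1 in 74 of 82 loci between the controls and in all 82 between the heat libraries. It was larger between the heat libraries in 62 of 82, but in only 2 of the 13 light-harvesting and photosystem I genes, LHCB4.2 and PSAD-2. It was also larger in 51 of the 69 loci with an L below 1.5 and in 4943 of 12145 loci with a mean of at least 10 CPM. RXW8 had the smallest ratio between controls at 0.67 with 3.59 between heat libraries, and CAB2 ran the other way at 4.86 and 3.16. THI2.2 had the smallest ratio between heat libraries at 1.35.

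**Figure D4:**
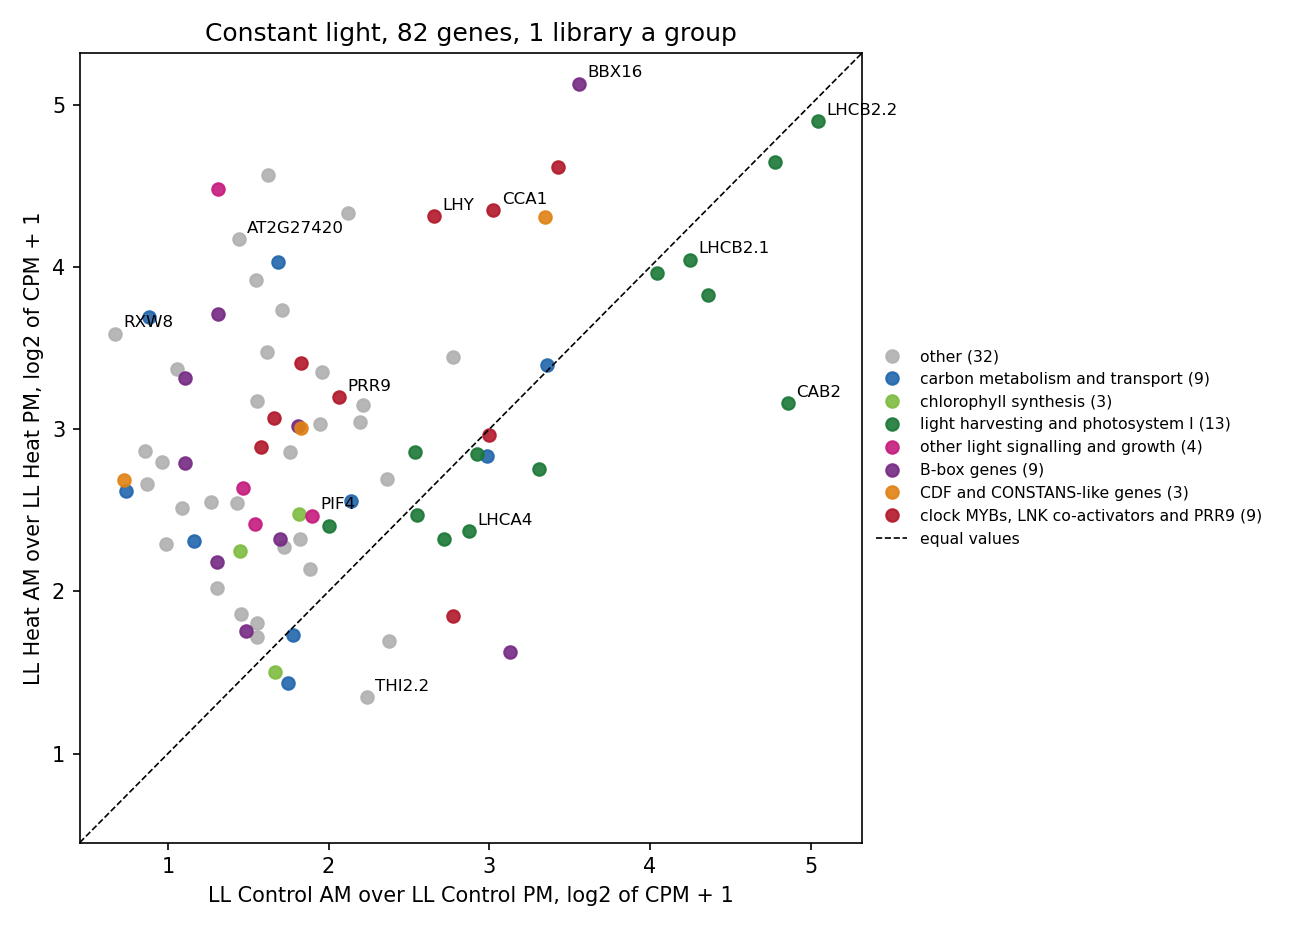
Log2 ratio of AM to PM CPM in constant light, with 1 CPM added, between the control libraries on the horizontal axis and between the heat libraries on the vertical axis, 1 library a group, for the 82 genes coloured by role. Most genes (62 of 82) lie above the dashed line of equal values, whereas 11 of the 13 light-harvesting and photosystem I genes in dark green lie below it; RXW8 (0.67 and 3.59) is farthest to the left.

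Much of that gap lay in the PM libraries. LL Heat PM was below LL Control PM in 64 of 82 loci with a median log2 ratio of -0.85, in 53 of the 69 loci with an L below 1.5, and in 5240 of 12145 loci with a mean of at least 10 CPM. In the 13 light-harvesting and photosystem I genes it was below in 4, with a median of 0.28. LL Heat PM was also the shallowest library at 8594948 counts, where 3 counts amount to 0.373 CPM, and its part in these values was not tested. BBX31 had 0 counts there, which allows up to 0.373 CPM, and SAG29 had 0 counts in LL Control PM, which allows up to 0.199 CPM. AT2G27420 had 3 counts in LL Heat PM and 12.2 CPM in LL Control PM.

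The heat groups were also set against the controls of the same hour. The controls chose the loci, for a high Control AM and a low Control PM mean, and a choice of that kind favours values above control in the PM and below control in the AM. The edgeR calls are therefore counted as a description, with nothing read from them. In the AM, 10 of 82 were above control by the edgeR call (5.2% of 21404 loci were) and 3 below (8.36% were). In the PM, 24 were above (7.59% of all) and 3 below (10.6% of all). AT3G53830, BBX18 and AFR were above control at both hours, and 45 of 82 passed the call at neither. With the replicate numbers as a block, 12 loci instead of 10 were above control in the AM and 5 instead of 3 below.

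**Figure D5:**
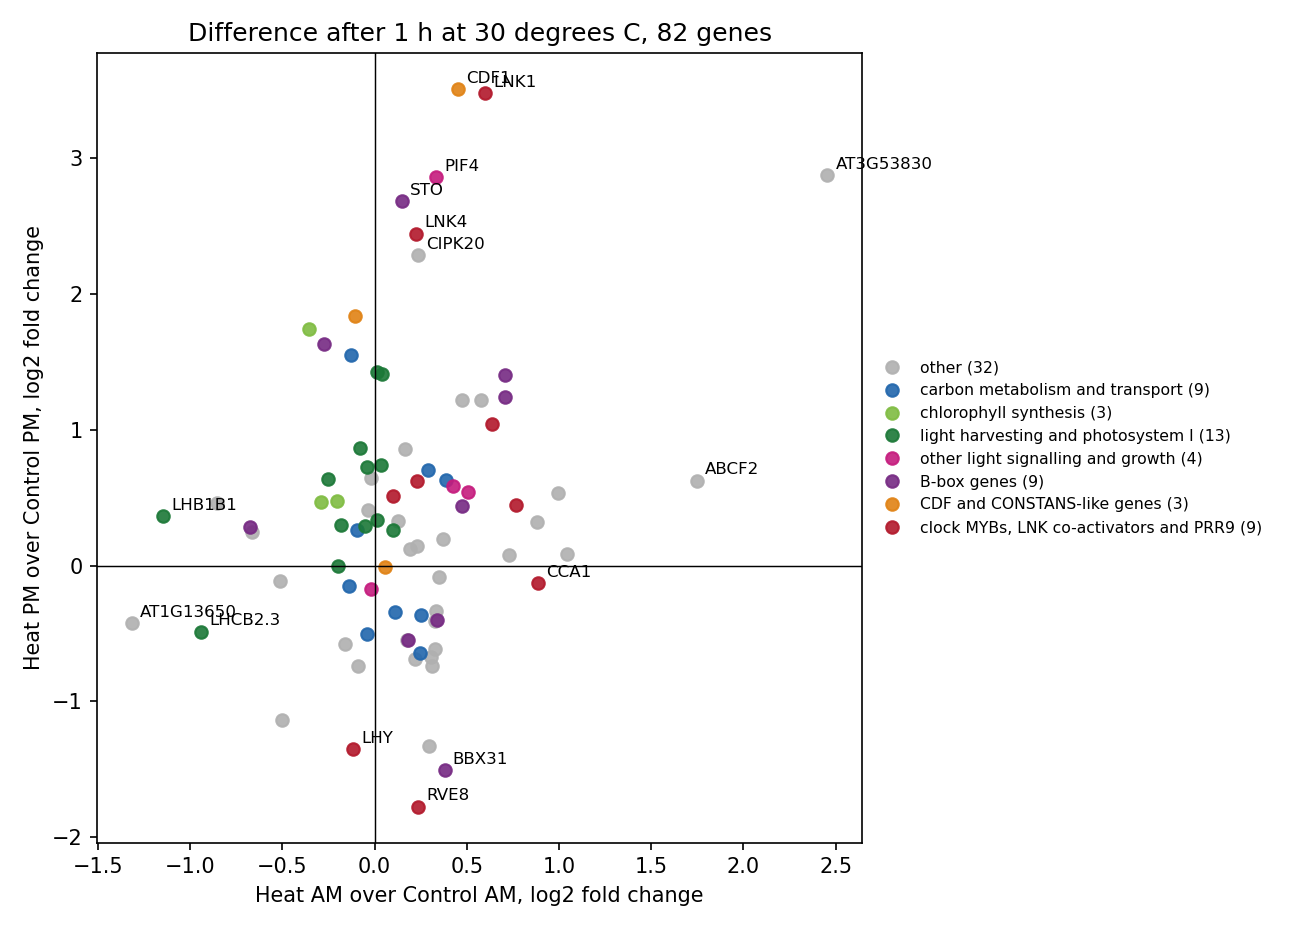
Log2 fold change after 1 h at 30 °C against control in the AM (horizontal) and in the PM (vertical) for the 82 genes coloured by role, 4 libraries a group; the controls of both axes chose the genes. CDF1 (0.45 and 3.51), LNK1 (0.60 and 3.48) and PIF4 (0.34 and 2.86) lie high on the PM axis near 0 on the AM axis, AT3G53830 is high on both (2.45 and 2.87), and RVE8 (0.23 and -1.77) lies low on the PM axis.

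CDF1 had the largest PM value, from 0.438, 0.728, 0.123 and 1.05 CPM in Control PM to 7.49, 6.34, 6.60 and 5.04 CPM in Heat PM, a log2 difference of 3.51. LNK1 went from 1.42, 1.09, 0.819 and 1.83 CPM to 18.8, 15.1, 13.2 and 8.66 CPM, a log2 difference of 3.48. PIF4 went from 2.26, 3.28, 2.46 and 3.77 CPM to 20.4, 24.3, 19.5 and 19.1 CPM, a log2 difference of 2.86. In these 3 genes every Heat PM library was above every Control PM library, and in the AM the heat and control libraries overlapped. STO, LNK4, CIPK20, a CBL-interacting protein kinase, and CDF3 were also apart in the PM, at 2.68, 2.44, 2.28 and 1.84, as were CH1 at 1.74, BBX28 at 1.63 and NCED4, a carotenoid cleavage enzyme, at 1.55. Even so, each of these genes was at least 3.86 times higher in its lowest Heat AM than in its highest Heat PM library.

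Among the light-harvesting and photosystem I genes, 5 of 13 were above control in the PM, beside 24 of all 82 and 7.59% of all loci. LHCB4.2 stood at 1.43 and PSAD-2 at 1.41, and LHCA4, LHCA1 and LHCB6 between 0.72 and 0.86. At the other end lay RVE8, from 2.23, 1.26, 5.37 and 6.15 CPM in Control PM to 0.715, 1.00, 0.722 and 1.84 CPM in Heat PM, a log2 difference of -1.77, and LHY at -1.35. The control and heat libraries of both overlapped. AT5G66740 went from 0.256, 0.298, 0.533 and 0.333 CPM to 0.179, 0.133, 0 and 0.188 CPM, a log2 difference of -1.32, with no overlap.

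In the AM the largest value was that of AT3G53830, annotated as a member of the RCC1 family, from 49.8, 46.7, 61.0 and 57.5 CPM in Control AM to 231, 243, 361 and 305 CPM in Heat AM, a log2 difference of 2.45. In constant light it was at 39.7 CPM in LL Control AM and 306 CPM in LL Heat AM. ABCF2, an ABC transporter family protein, went from 10.3 ± 5.82 CPM (SD, n = 4) to 42.8, 46.9, 23.4 and 21.1 CPM, a log2 difference of 1.75. CCA1 went from 338, 337, 262 and 312 CPM to 515, 488, 700.1 and 526 CPM, a log2 difference of 0.88, whereas LHY stood at -0.12. The heat libraries of AT3G53830, ABCF2 and CCA1 were all above their controls.

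Lower values in the AM were those of AT1G13650, from 137, 100.2, 227 and 243 CPM to 59.7, 32.1, 113 and 70.3 CPM (log2 difference -1.32), LHB1B1 at -1.15 and LHCB2.3 at -0.94. In all 3 the groups overlapped. Counts of loci past the call changed with single libraries left out, between 5 and 11 above and 1 and 4 below in the AM, and between 21 and 27 above and 1 and 5 below in the PM. The summed level of 8 root markers was 27.1 to 54.5 CPM over the control libraries of the light:dark cycle and 7.17 to 26.5 CPM over the heat libraries, and its part in the differences between heat and control was not tested.

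Around the members, lists of related genes gave the following in Heat AM against Heat PM. Over all 20809 loci tested, 20.5% were called higher in Heat AM and 19.6% in Heat PM. Of 11 dawn clock MYBs and co-activators tested, 8 were higher in Heat AM and 2 in Heat PM, and 7 of the 11 were members. The symbols RVE3, RVE5 and RVE6 matched no locus by name. RVE3 is another name of the clock MYB ASG4, so this member (log2 difference 7.26) was left out of these counts. Of 13 pseudo-response regulators, evening complex and GI or ZTL family genes, 9 were higher in Heat PM and 3 in Heat AM, and PRR9 was the one member. Of 6 CDF and CONSTANS-like genes 5 were higher in Heat AM and 1 in Heat PM, without CDF1, whose symbol matched more than 1 locus. Of 33 light signalling and B-box genes 23 were higher in Heat AM and 4 in Heat PM, and 9 were members.

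Of 10 photoprotection and light-harvesting genes 8 were higher in Heat AM and 1 in Heat PM, with 3 members. Of 13 auxin and growth genes the counts were 10 and 1, with EXPA8 the member, and of 15 starch genes 4 and 8, with GBSS1 the member. The lists without a member were 18 flavonoid and phenylpropanoid genes (16 higher in Heat AM and 0 in Heat PM), 10 cold-regulated genes (5 and 3), 13 heat shock genes (7 and 1) and 16 genes of iron, nitrogen and sulphur nutrition (6 and 1). These lists and the 82 were chosen with values of these libraries known.

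Between 14637914 and 38812441 counts per library lay on loci in the light:dark cycle and between 8594948 and 19957156 in constant light. The 7 aerial green tissue markers summed to at least 19729 CPM in every library, some of them being members. The 8 root markers summed to at most 54.5 CPM, with 7.91 to 26.5 CPM in Heat AM and 7.17 to 26.2 CPM in Heat PM, and 4 seed storage markers to at most 0.809 CPM. In whole aerial tissue, fewer cells of a type and less transcript per cell cannot be told apart.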

How the data were processed

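Poly(A) RNA-Seq libraries from aerial tissue of Col-0 seedlings were used, 16 from the light:dark cycle and 4 from constant light. The authors deposited raw, unscaled counts for each locus on TAIR10. The submitters' processing notes name TopHat2 2.1.0 and HTSeq 0.6.0. Reads were counted by the authors on the reverse strand in the intersection-nonempty mode, and reads shared by near-identical genes may be missing from such counts. Each library held between 8594948 and 38812441 counts, and no row lacked a locus. Intervals and floors of 3 counts cover counting error only.

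From the counts, TMM-scaled CPM were computed over all 20 libraries with edgeR 4.0.16 in R 4.3.3. Heat AM and Heat PM were compared by the quasi-likelihood test on the 8 heat libraries alone, over loci with at least 10 counts in at least 1 library, with Benjamini-Hochberg adjustment. Heat and control were compared in a fit of all 4 groups. Each SE was derived from a fold change and its F statistic. The test was tried on simulated counts. Alternatives were other scalings, filters and pseudocounts, DESeq2 1.42.0, a test against the fold limit (glmTreat), other thresholds of the rule, libraries left out and the replicate number as a block. Over 14831 genes, deviations of libraries with the same number in the labels correlated at 0.12 or more in every pair of groups (0.41 to 0.65 between Heat AM and Heat PM). Of the 8 heat libraries, 5 had their best partner under the same number. The numbers may thus pair the samples. The main fits left this pairing out, and only the block alternative used it. Replicates of a group differed by more than sampling noise in all 24 pairs (chi-square per degree of freedom 11.2 to 140).

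Promoter windows were cut with Python 3.11.15 from RefSeq TAIR10.1 at the annotated gene start, in place of a ready promoter table; all 82 loci matched its annotation by locus and 81 are protein-coding. The files hold no coordinates. Of the symbols on the gene lists, 163 of 180 matched 1 locus, with CHI read as chalcone isomerase (TT5 in RefSeq) and not as the chitinase of that symbol.

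The members, the roles and the gene lists were chosen with earlier results of these data known. The genes named were members on a fixed list, the 8 largest and 8 smallest in Heat AM against Heat PM, the 6 highest in Control AM, the 4 largest L, the 5 largest and 5 smallest against control at each hour, and those next to a threshold. Further members were named to complete a role or a count after their values were seen.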

Additional observations from a re-analysis of the deposited data

Results flagged for a closer look

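Of 196 groups of 4 libraries checked over 49 named genes, 8 held a library far from the other 3 by Dixon's ratio, where chance alone gives about 1 in 20. LHY was at 117 CPM in Heat AM replicate 4, with the nearest library at 165 CPM. LHCB2.2 was at 3834 CPM in Heat AM replicate 1, with the nearest at 2385 CPM, and PSAD-2 was at 1318 CPM in the same library, with the nearest at 939 CPM. LNK4 was at 7.06 CPM in Heat PM replicate 3, with the nearest at 4.11 CPM. In all these the Heat AM and Heat PM libraries stayed apart.

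The other 4 lay in controls, which chose the members. CAB2 was at 305 CPM in Control PM replicate 2, with the nearest at 73.6 CPM. BBX32 was at 22.3 CPM in Control AM replicate 3, BBX28 at 0.292 CPM in Control PM replicate 1 and AT1G65490 at 122 CPM in Control AM replicate 1.

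AT5G66740 was flagged because its heat libraries lay on opposite sides of control at the 2 hours. In the AM the libraries were only just apart, the lowest Heat AM at 18.2 CPM and the highest Control AM at 18.0 CPM. That AM difference did not pass the edgeR call (log2 difference 0.29 ± 0.21 SE). In the PM every Heat PM library was below every Control PM library (log2 difference -1.32), at low counts. The difference between the hours was not tested, since the controls of both chose the gene.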

How the results depend on the processing

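All 82 members were called higher in Heat AM than in Heat PM under every alternative run for that comparison, and the smallest log2 difference among them stayed between 2.34 and 2.48. The calls of single named members kept their side of the threshold in all 784 values. Over all loci, 8344 were called in either direction, 5080 with glmTreat, 9203 with the replicate block, 8540 with DESeq2 and 7742 to 8184 with 1 library left out. The replicate block changed no call of a member in Heat AM against Heat PM. Membership moved with the rule: an L of at least 2 left 51 loci, the LL controls alone gave 62 (58 of them among the 82), the LL heat libraries alone 110 (80 among the 82) and a pseudocount of 2 CPM 68, while leaving out 1 control library gave 77 to 82.

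Counts of members set against control were less stable. Above control in the AM there were 10, then 7 with upperquartile scaling and 12 with the replicate block. With 1 library left out there were 5 to 11. The count was 5 without Heat AM replicate 1, and 6 without Control AM replicate 4 or Heat AM replicate 2. Below control in the AM there were 3, then 5 with the replicate block and 1 to 4 with 1 library left out (1 without Control AM replicate 1, 3 or 4, Control PM replicate 4, Heat AM replicate 2 or 4, or Heat PM replicate 4). Below control in the PM there were 3, then 5 with upperquartile scaling and 1 to 5 with 1 library left out (5 without Control PM replicate 1, 1 without Control PM replicate 3 or Heat PM replicate 3). Above control in the PM there were 24, then 19 with upperquartile scaling and 21 to 27 with 1 library left out. Of 2058 values of single named members against control, 43 lost the call and 15 gained it, and no called value changed direction. With 250 bases before the start alone, the heat shock element stood in 4 member promoters and not 7. The causes were not tested. With 1 library a group, the constant light values carry no error.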

Other observations

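Beyond the 82, RVE7, a MYB relative of CCA1, was higher in the AM at 23 °C and in the PM at 30 °C. Its mean was 24.8 CPM in Control AM and 3.53 CPM in Control PM, and 87.7 CPM in Heat AM against 166 CPM in Heat PM (log2 difference -0.93 ± 0.18 SE, edgeR adjusted p = 0.00143). RVE2, another relative, was higher in the PM at both temperatures, with means of 15.0 and 241 CPM in Control AM and Control PM and 32.1 and 313 CPM in Heat AM and Heat PM (log2 difference at 30 °C -3.29 ± 0.18 SE, edgeR adjusted p = 1.68e-07). PRR7 met the rule on D at 4.52 but had an L of 0.44, and stood at means of 158 CPM in Heat AM and 51.1 CPM in Heat PM. BBX30, kept out by its level alone, had means of 7.98 and 0.042 CPM in Control AM and Control PM and of 15.2 and 0.025 CPM in Heat AM and Heat PM. These genes were named after their values were seen.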
